A study of Mus musculus with 32 samples.

Results

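Tnf, the receptors it binds and the NF-kB genes that act downstream of them were followed in mouse spinal cord. The set comprised 9 genes: the ligand Tnf, its receptors Tnfrsf1a and Tnfrsf1b, the NF-kB subunit genes Nfkb1, Nfkb2 and Relb, and the regulator genes Nfkbia, Nfkbiz and Tnfaip3. They were found by their Ensembl identifiers, paired with names through the GENCODE mouse annotation, and were 9 of the 42524 genes in the count table. RNA had been sequenced from 32 mice, with 4 mice in each of 8 groups defined by genotype, treatment and age. G93A mice, of the line B6-Tg(SOD1-G93A)1Gur/J, carried a mutant human SOD1 transgene that causes motor neuron disease and is not confined to a particular cell type, and WT mice were littermates without it on the same C57BL/6J background. OKN-007, a nitrone compound, was supplied in the drinking water to the treated mice of both genotypes, and the other mice were untreated. Samples were taken at 90 or 155 days. The labels give 90 days for the earlier age and the study text gives 95 days. The labels of the sequenced mice do not state the dose, and the study text describes its cohorts at these ages as receiving the higher of its doses.

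TNF is a cytokine made mainly by myeloid cells, which in the spinal cord are chiefly microglia. Binding of TNF to its receptors activates the IKK kinases, which mark the inhibitor IkB-alpha for destruction and release NF-kB dimers into the nucleus. Several of the genes that NF-kB switches on encode its own inhibitors, so the pathway limits itself. A second, slower branch runs through the kinase NIK and turns the Nfkb2 precursor into a partner for RelB.

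Windows before RefSeq starts of the genes are shown because 8 of the 9 genes were higher together in G93A mice at 155 days, and because NF-kB binds a known consensus sequence. RefSeq windows (GRCm38.p6) were matched for 6 of the 9 genes, with 9 windows in all, and were not matched for Nfkb1, Relb and Nfkbiz. The RefSeq starts can differ from the GENCODE gene positions given below. The windows of Nfkb2, Tnfrsf1a and Tnfaip3 lie wholly or almost wholly inside the GENCODE bounds of these genes. The kB consensus was searched on both strands in the 250 bases before each annotated start. It was found in 5 of these 9 windows, belonging to 3 genes, Nfkb2, Nfkbia and Tnfaip3. Nfkbia was not among the 8 higher genes. The same search found it in 2382 of 32851 mouse windows of this length (7.25%). The Nfkb2 windows lie before alternative starts of that gene and in part overlap. The 9 windows are therefore not independent, and the shares were not compared by a test. Each window below reads 5′ to 3′ on the strand of the gene, with matches in capitals, and lies at chr19:46304487-46304736 (+) for the first start of Nfkb2, chr12:55492648-55492897 (-) for Nfkbia, chr10:19015411-19015660 (-) for the first start of Tnfaip3 and chr17:35202008-35202257 (-) for Tnf.
Nfkb2: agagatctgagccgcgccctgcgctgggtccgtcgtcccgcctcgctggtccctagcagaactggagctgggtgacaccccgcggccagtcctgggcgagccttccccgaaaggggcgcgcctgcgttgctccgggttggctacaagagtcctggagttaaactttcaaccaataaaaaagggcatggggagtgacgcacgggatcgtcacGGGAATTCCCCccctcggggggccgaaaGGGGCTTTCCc
Nfkbia: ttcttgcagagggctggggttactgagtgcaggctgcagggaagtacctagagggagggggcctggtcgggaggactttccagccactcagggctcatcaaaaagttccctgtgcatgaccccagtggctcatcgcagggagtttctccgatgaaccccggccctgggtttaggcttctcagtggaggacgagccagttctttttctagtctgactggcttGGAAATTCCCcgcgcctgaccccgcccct
Tnfaip3: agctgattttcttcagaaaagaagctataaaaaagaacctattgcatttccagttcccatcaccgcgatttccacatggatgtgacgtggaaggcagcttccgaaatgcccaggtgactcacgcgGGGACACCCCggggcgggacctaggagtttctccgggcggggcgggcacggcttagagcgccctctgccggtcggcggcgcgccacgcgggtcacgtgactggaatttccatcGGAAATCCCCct
Tnf: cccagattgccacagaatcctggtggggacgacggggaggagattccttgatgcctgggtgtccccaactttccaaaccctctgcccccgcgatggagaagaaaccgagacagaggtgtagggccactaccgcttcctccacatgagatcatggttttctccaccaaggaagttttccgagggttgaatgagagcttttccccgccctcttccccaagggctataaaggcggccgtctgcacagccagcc
In Nfkb2 the matches began 39, 38 and 11 bases before the start, and the first 2 of them overlapped. The match in Nfkbia began 29 bases before the start, and those in Tnfaip3 began 125 and 12 bases before it. The windows of Tnf, Tnfrsf1a and Tnfrsf1b held no match to these letters. A match describes the sequence and does not show binding.

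The counts assigned to genes summed to 19701722 in the smallest and 30138257 in the largest library (median 26658755). A count of 3 in the smallest library corresponded to 0.152 CPM (the usual counts-per-million unit, scaled by edgeR's TMM factors), and this floor covers counting error only. Xist exceeded Kdm5d in all 32 libraries, so that sex did not differ between the groups. In 3 libraries the liver transcript Alb was above 40 CPM (WT OKN-007 at 90 days, replicate 6; untreated G93A at 155 days, replicate 12; G93A OKN-007 at 155 days, replicate 15). The summed level of 9 caudal Hox genes, which mark the posterior cord, lay at 88.3 to 158 CPM in untreated WT mice and at 4.43 to 82.5 CPM in untreated G93A mice at 155 days, without overlap. It lay at 129 to 173 CPM in WT and 22.7 to 68.6 CPM in G93A mice given OKN-007 at that age, again without overlap.

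At 155 days, transcripts of the ligand, both receptors, all 3 subunit genes and 2 of the 3 regulator genes were higher in untreated G93A mice than in untreated WT mice. Of the 9 genes, 8 were called higher and 0 lower by edgeR's quasi-likelihood test with a Benjamini-Hochberg adjusted p under 0.05, whereas 21.3% of the 18675 genes tested were called higher and 18.2% lower. For these 8 genes every G93A mouse was above every WT mouse, a separation that 17.4% of all genes tested showed in this direction. Nfkbia overlapped and was not called. This comparison asks how the mutant transgene altered the pathway late in disease.

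Tnf (ENSMUSG00000024401, chr17:35199381-35202007) encodes the ligand and was the least abundant gene of the set. It had 3, 2, 1 and 0 counts in the untreated WT mice at 155 days and 13, 27, 21 and 18 counts in the untreated G93A mice. The G93A libraries were thus all above the WT libraries, at 0.508 to 1.12 CPM against 0 to 0.112 CPM. Over all 4 mice, 79 counts against 6 gave a ratio of 13.4 per read, with an exact 95% interval of 5.91 to 37.7 that covers counting error only. The fitted log2 fold change was 3.66 (SE 0.59, edgeR adjusted p = 7.4e-05, n = 4 per group), and its size depends on how such low WT counts are handled. Tnf passed the filter on low counts through the G93A mice.

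Both receptors rose, each to more than 4 times its mean WT level. Tnfrsf1a (ENSMUSG00000030341, chr6:125349362-125362484), the death-domain receptor found on most cells, was at 15.9, 19.3, 14.8 and 16.4 CPM in untreated WT mice and at 61.9, 85.5, 79.6 and 58.4 CPM in untreated G93A mice. Every G93A mouse was more than 3 times the highest WT mouse. Its log2 fold change was 2.12 (SE 0.13, edgeR adjusted p = 3.9e-10). Tnfrsf1b (ENSMUSG00000028599, chr4:145213463-145246870), the receptor without a death domain that is found mainly on immune and glial cells, was at 3.46, 3.12, 3.71 and 3.34 CPM in WT and at 14.4, 15.97, 16.5 and 11.2 CPM in G93A mice. Its log2 fold change was 2.10 (SE 0.14, edgeR adjusted p = 1.3e-09), and the lowest G93A mouse, replicate 12, was also the lowest for Tnfrsf1a.

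The subunit genes rose by unequal amounts. Nfkb2 (ENSMUSG00000025225, chr19:46304320-46312385), the precursor subunit of the NIK branch, was at 3.69, 3.90, 3.74 and 3.74 CPM in untreated WT mice and at 10.1, 11.6, 11.7 and 9.39 CPM in untreated G93A mice. The SD of the WT mice was 0.0939 CPM, and the log2 fold change was 1.52 (SE 0.12, edgeR adjusted p = 9.7e-09). Exons of Nfkb2 share 830 bases with genes on the opposite strand, among them Psd. Psd went the other way in the same comparison (log2 fold change -0.36, SE 0.076, edgeR adjusted p = 0.000997), and the strand setting of the counting is not given in the sources used here. Relb (ENSMUSG00000002983, chr7:19606217-19629438), the partner of the processed Nfkb2 protein, was at 4.99, 7.07, 5.04 and 5.12 CPM in WT and at 10.5, 12.1, 12.8 and 8.92 CPM in G93A mice. Its log2 fold change was 1.01 (SE 0.14, edgeR adjusted p = 1.2e-05). Nfkb1 (ENSMUSG00000028163, chr3:135584655-135691547), a precursor subunit of the canonical branch, changed least among the genes called, from 27.04, 28.7, 28.0 and 26.5 CPM to 35.5, 41.6, 39.98 and 35.5 CPM. Its groups still did not overlap, and the log2 fold change was 0.48 (SE 0.079, edgeR adjusted p = 8.8e-05).

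Among the regulators, Tnfaip3 and Nfkbiz were called and Nfkbia was not. Tnfaip3 (ENSMUSG00000019850, chr10:19000910-19015657), a ubiquitin-editing enzyme that shuts the receptor signal down, was at 2.05, 1.95, 2.87 and 2.82 CPM in untreated WT mice and at 7.42, 7.44, 9.60 and 6.25 CPM in untreated G93A mice. Tnfaip3 had a log2 fold change of 1.67 (SE 0.19, edgeR adjusted p = 1.4e-06), without overlap. Nfkbiz (ENSMUSG00000035356, chr16:55811375-55838899), a nuclear IkB-like protein that modifies which genes NF-kB switches on, was at 8.75, 5.51, 7.37 and 8.46 CPM in WT and at 15.8, 15.97, 27.03 and 16.3 CPM in G93A mice. Replicate 11 stood above the other 3 G93A mice, which lay close together, and the log2 fold change was 1.33 (SE 0.19, edgeR adjusted p = 1.9e-05). Nfkbia (ENSMUSG00000021025, chr12:55489410-55492647), which encodes IkB-alpha, was at 31.0, 30.7, 24.2 and 68.8 CPM in WT and at 61.5, 37.8, 119 and 56.0 CPM in G93A mice. The groups overlapped through WT replicate 4, which was above 3 of the 4 G93A mice. Its log2 fold change of 0.84 (SE 0.35, 95% interval 0.11 to 1.57) missed the threshold (edgeR adjusted p = 0.0619), and without WT replicate 4 it was 1.29 (edgeR adjusted p = 0.00539).

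**Figure D1:**
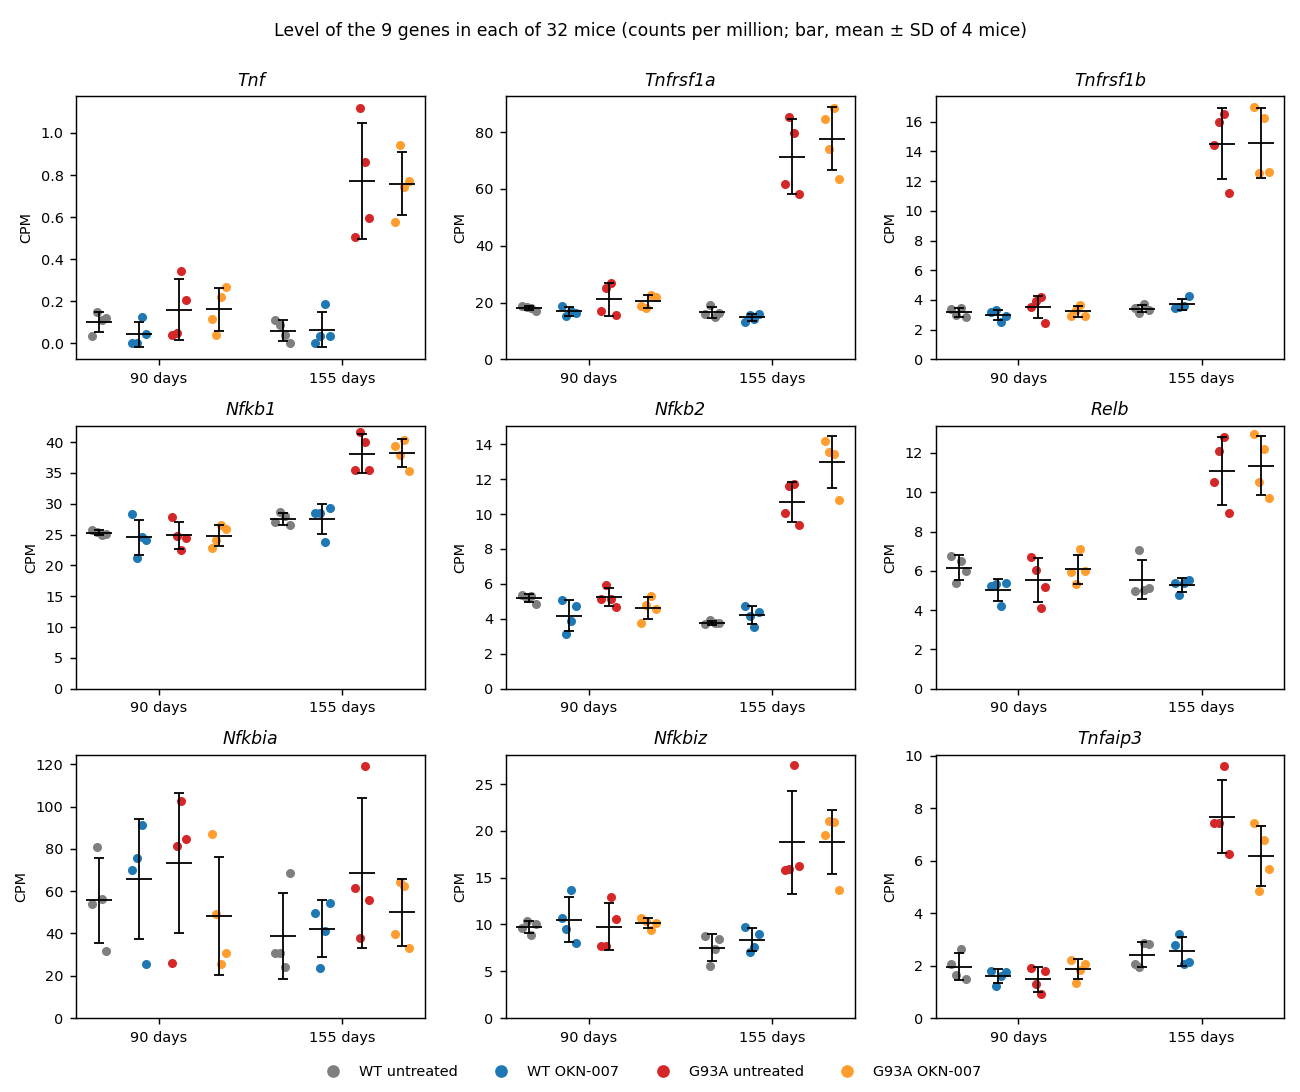
Each panel shows the level of a gene in CPM (vertical axis, linear and starting at 0 or just below) for 32 mice, with 4 mice in each of 8 groups at 90 or 155 days (horizontal axis); points are mice and bars are the mean ± SD. For 8 of the 9 genes the 8 G93A mice at 155 days stand above the other 24 mice, whereas Nfkbia spreads widely inside every group.

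Seen over all groups, the 8 G93A mice at 155 days, treated or not, stood above all 24 other mice for 8 of the 9 genes. The same separation held for 8.05% of the 19829 genes tested in all mice. The margin was wide for Tnfrsf1b, at 11.2 to 17.0 CPM against 2.48 to 4.27 CPM, and for Tnfaip3, at 4.83 to 9.60 CPM against 0.902 to 3.20 CPM. For Nfkbiz it was nil in practice, since the lowest of the 8 mice and the highest of the 24 were both at 13.7 CPM. Nfkbia ran from 33.2 to 119 CPM in the 8 mice and from 23.8 to 103 CPM in the 24.

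Levels of different genes were compared per kilobase of annotated exon, pooled over all annotated transcripts of a gene. This length was 12061 bases for Nfkb1 and 7226 bases for Tnfaip3, against 1610 bases for Nfkbia. Where the transcripts present are shorter than the pooled exons, the level is understated, so the order of the genes depends on this length. In untreated WT mice at 155 days, Nfkbia came first with 24.02 ± 12.6 CPM per kilobase (mean ± SD, n = 4), followed by Tnfrsf1a with 6.40 ± 0.741 and Nfkb1 with 2.28 ± 0.0806. Nfkbiz (1.499 ± 0.293) and Relb (1.43 ± 0.260) came next and differed by less than either SD, and the mice overlapped between Tnfrsf1b (0.893 ± 0.0636) and Nfkb2 (0.822 ± 0.0205). Tnfaip3 (0.335 ± 0.0676) and Tnf (0.0361 ± 0.0304) were lowest. In untreated G93A mice, Nfkbia (42.7 ± 21.9) and Tnfrsf1a (27.5 ± 5.11) differed by less than the SD of Nfkbia. Then came Tnfrsf1b (3.80 ± 0.623), Nfkbiz (3.74 ± 1.10), Nfkb1 (3.16 ± 0.261) and Relb (2.86 ± 0.445), each apart from the next by less than the larger SD of the pair, and Nfkb2 (2.33 ± 0.250). Tnfaip3 (1.06 ± 0.193) and Tnf (0.470 ± 0.168) were again lowest.

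The same comparison within mice given OKN-007 at 155 days had its own controls, WT mice given OKN-007. Of the 9 genes, 8 were called higher and 0 lower, against 23.3% called higher and 18.2% called lower among the 18675 genes tested, and the groups of these 8 genes did not overlap, as for 22.6% of all genes tested. Tnf had 0, 1, 5 and 1 counts in WT and 17, 26, 22 and 19 counts in G93A mice given OKN-007, a ratio of 11.7 (exact 95% interval 5.45 to 30.1, counting error only). Tnfrsf1a was at 13.3, 15.8, 14.3 and 15.999 CPM in WT and at 84.5, 74.2, 88.5 and 63.6 CPM in G93A mice, a log2 fold change of 2.43 (SE 0.13, edgeR adjusted p = 6.8e-11). The lowest G93A mouse was again far above the highest WT mouse.

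Tnfrsf1b had a log2 fold change of 2.01 (SE 0.14) in the mice given OKN-007, close to that in untreated mice. Nfkb2 was at 4.73, 4.17, 3.55 and 4.41 CPM in WT and at 14.2, 13.5, 13.5 and 10.8 CPM in G93A mice given OKN-007, with a log2 fold change of 1.66 (SE 0.12, edgeR adjusted p = 1.9e-09). The log2 fold changes were 1.15 (SE 0.14) for Relb, 0.51 (SE 0.079) for Nfkb1, 1.21 (SE 0.19) for Nfkbiz and 1.32 (SE 0.19) for Tnfaip3, the negative regulator. The highest edgeR adjusted p among the 8 genes was 7.0e-05, for Tnf. Nfkbia was at 49.5, 23.8, 41.3 and 54.6 CPM in WT and at 39.99, 64.5, 62.4 and 33.2 CPM in G93A mice. These groups overlapped, and the log2 fold change of Nfkbia was 0.28 (SE 0.34, edgeR adjusted p = 0.550).

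At 90 days, none of the genes tested was called between G93A and WT mice. The test covered 8 of the 9 genes, since Tnf did not pass the filter on low counts at this age. In untreated mice 0 of the 8 were called by edgeR, with 0 at an unadjusted p under 0.05 and 0 called by DESeq2, and 0% of all 18899 genes tested were called, with 5.96% at an unadjusted p under 0.05. In mice given OKN-007 the counts were likewise 0, 0 and 0, and 3.95% of all genes were at an unadjusted p under 0.05. Averaged over the treatments, which sets 8 G93A mice against 8 WT mice, 0 of the 8 genes were called by edgeR and 0 by DESeq2, and 5 of all genes tested (0.0265%) were called. At an unadjusted p under 0.05, 1 of the 8 genes passed, as did 6.61% of all genes. That gene was Tnfrsf1a, with a log2 fold change of 0.25 (SE 0.10, edgeR adjusted p = 0.656).

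The values behind this show how close the groups were. Tnfrsf1a was at 18.8, 18.5, 18.1 and 17.2 CPM in untreated WT mice and at 16.9, 25.0, 26.9 and 15.5 CPM in untreated G93A mice at 90 days. The G93A mice lay on both sides of the WT mice. Tnfrsf1b ranged from 2.88 to 3.46 CPM in WT and from 2.48 to 4.17 CPM in G93A mice, and Nfkb1 from 24.9 to 25.8 CPM and from 22.5 to 27.8 CPM. For Nfkb1 the log2 fold change was -0.02, with a 95% interval of -0.21 to 0.16. Tnfaip3 was the gene with the lowest log2 fold change in untreated mice, -0.39 (SE 0.25, 95% interval -0.93 to 0.14), and had 0.23 (SE 0.25, 95% interval -0.30 to 0.76) in mice given OKN-007. Its intervals cover 0 in both, and its sign was not settled.

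Tnf at 90 days was close to the floor of 3 counts in every group. The untreated WT mice had 1, 4, 3 and 3 counts and the untreated G93A mice 1, 1, 8 and 6 counts, a ratio of 1.56 (exact 95% interval 0.678 to 3.71, counting error only). In mice given OKN-007, the WT mice had 0, 0, 3 and 1 counts and the G93A mice 3, 1, 6 and 8 counts, a ratio of 3.93 (exact 95% interval 1.29 to 15.97, counting error only). The groups overlapped in both cases, and with no filter on low counts the edgeR adjusted p was 0.891 for the untreated mice and 0.881 for those given OKN-007. Over all 32 libraries, Tnf had 3 counts or fewer in 18.

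The G93A change was tested for a difference between the ages in a fit of all 32 mice. In untreated mice the change was greater at 155 than at 90 days for 8 of the 9 genes, where 12.9% of 19829 genes tested were called in this direction. The differences of log2 fold changes were 2.04 (SE 0.31) for Tnfaip3, 1.95 (SE 0.21) for Tnfrsf1b, 1.89 (SE 0.20) for Tnfrsf1a, 1.495 (SE 0.18) for Nfkb2, 1.30 (SE 0.26) for Nfkbiz, 1.16 (SE 0.20) for Relb and 0.49 (SE 0.12) for Nfkb1. These 7 genes had edgeR adjusted p-values of 0.00239 or lower. For Tnf the difference was 3.04 (SE 1.07, edgeR adjusted p = 0.0398), and it missed the threshold when any of 10 mice was left out in turn, with adjusted p-values up to 0.0807. Nfkbia had a difference of 0.42 (SE 0.59, edgeR adjusted p = 0.662).

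In mice given OKN-007 the change was greater at 155 days for 7 of the 9 genes, against 13% of all genes tested. The difference was largest for Tnfrsf1a, 2.11 (SE 0.20, edgeR adjusted p = 3.7e-09), and for Tnfaip3 it was 1.06 (SE 0.31, edgeR adjusted p = 0.0141). The genes not called were Tnf, with 1.62 (SE 1.31, edgeR adjusted p = 0.409; 0.31 to 2.87 when each mouse was left out in turn), and Nfkbia, with 0.69 (SE 0.59, edgeR adjusted p = 0.442). For Nfkb2, untreated WT mice were at 5.38, 5.22, 5.28 and 4.87 CPM at 90 days and at 3.69 to 3.90 CPM at 155 days. WT mice given OKN-007 were at 3.11 to 5.08 CPM and 3.55 to 4.73 CPM at these ages and overlapped. The ages were not compared within a genotype by a test, and the share of all genes that separated between them was not counted.

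**Figure D2:**
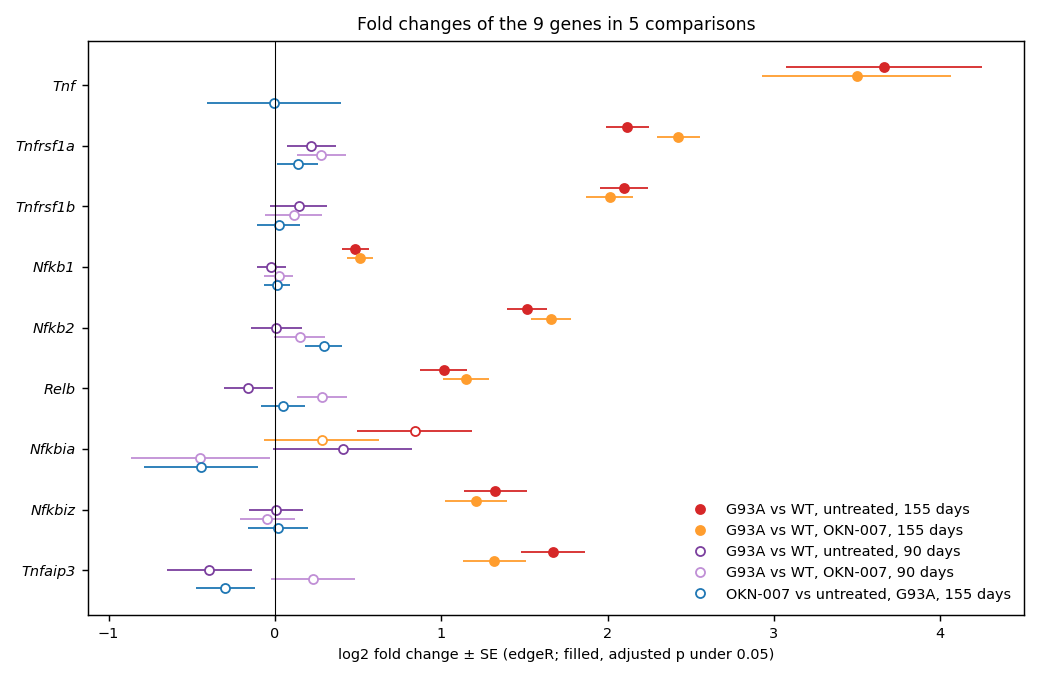
The log2 fold change (horizontal axis) of the 9 genes (vertical axis) in 5 comparisons, with bars of 1 SE and filled points where edgeR's adjusted p was under 0.05; Tnf was not tested at 90 days. Filled points appear only in the 2 comparisons of G93A with WT at 155 days, for every gene but Nfkbia.

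OKN-007 was compared with no treatment within each genotype, to ask whether the compound altered the pathway. In G93A mice at 155 days edgeR called 0 of the 9 genes and DESeq2 0, and 0% of all 18675 genes tested were called. At an unadjusted p under 0.05, 1 of the 9 genes passed, as did 4.04% of all genes. That gene was Nfkb2, at 10.1, 11.6, 11.7 and 9.39 CPM untreated and at 14.2, 13.5, 13.5 and 10.8 CPM with OKN-007. Of the treated mice 3 were above every untreated mouse and the fourth lay among them. Its log2 fold change was 0.29 (SE 0.11, 95% interval 0.06 to 0.53, edgeR adjusted p = 0.9996).

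For the other genes the 95% intervals of the log2 fold change with OKN-007 in G93A mice at 155 days covered 0. They ran from -0.12 to 0.39 for Tnfrsf1a, from -0.25 to 0.29 for Tnfrsf1b, from -0.15 to 0.18 for Nfkb1 and from -0.23 to 0.33 for Relb. The regulator genes were less tightly bounded, with -0.67 to 0.08 for Tnfaip3, -0.36 to 0.39 for Nfkbiz and -1.16 to 0.27 for Nfkbia. Tnf, the ligand, had a log2 fold change of -0.0045 with an interval of -0.85 to 0.84. Tnf was at 0.576 to 0.944 CPM in the treated and 0.508 to 1.12 CPM in the untreated G93A mice. A missed threshold does not show that the treatment had no effect. The intervals give the changes compatible with the data, and do not mark what could have been called after adjustment over all genes tested.

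In WT mice at 155 days, 0 of the 9 genes were called by edgeR or by DESeq2 and 0 were at an unadjusted p under 0.05, a level that 2.94% of all genes reached. At 90 days the tested 8 genes gave 0 calls by either tool and 0 at an unadjusted p under 0.05 in both genotypes, where 5.56% of all genes in G93A mice and 4.07% in WT mice reached that level. Relb in WT mice at 90 days was lower in every treated than in every untreated mouse, a separation that 1.02% of all genes showed in this direction. It was at 6.77, 5.37, 6.51 and 5.99 CPM untreated and at 5.21, 5.31, 4.19 and 5.36 CPM with OKN-007. The groups nearly met, and the log2 fold change was -0.30 (SE 0.15, edgeR adjusted p = 0.993).

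The interaction of genotype and treatment asks directly whether OKN-007 altered the G93A change. At 155 days it gave 0 of the 9 genes by edgeR, 0 by DESeq2 and 0 at an unadjusted p under 0.05, a level that 2.34% of all genes reached. The interaction was 0.31 (95% interval -0.07 to 0.68) for Tnfrsf1a, 0.14 (-0.21 to 0.49) for Nfkb2 and -0.35 (-0.92 to 0.21) for Tnfaip3 on the log2 scale. At 90 days it gave 0 of 8 by edgeR and DESeq2 and 0 at an unadjusted p under 0.05, against 2.81% of all genes. It was 0.62 (95% interval -0.13 to 1.38) for Tnfaip3, 0.44 (95% interval from just below 0 to 0.89) for Relb and -0.86 (95% interval -2.10 to 0.39) for Nfkbia.

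Nfkbia varied widely inside the groups. Inside the untreated G93A group at 90 days it ran from 25.8 to 103 CPM, and inside the WT OKN-007 group at that age from 25.7 to 91.5 CPM. In the same 2 groups Nfkb1 ran from 22.5 to 27.8 CPM and from 21.3 to 28.3 CPM. Tnf, at its low counts, also varied widely there, from 0.0384 to 0.344 CPM and from 0 to 0.126 CPM. The likeness of genes was described by Pearson's r of their log2 CPM over the 32 mice after the mean of each group was removed. The genes most like Nfkbia were Plekhf1 (r = 0.967), the kinase gene Sgk1 (r = 0.965) and the clock gene Per1 (r = 0.964). All values of a mouse come from the same library, and these r are descriptions with no test.

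Per1 shows what this likeness looks like in the mice. The untreated WT mouse at 155 days with the high Nfkbia level, replicate 4, had 46.8 CPM of Per1 against 21.6 to 24.8 CPM in the other 3 mice of its group. The untreated G93A mouse with 119 CPM of Nfkbia, replicate 11, had 67.9 CPM of Per1 against 37.1 to 48.4 CPM in the other 3 mice of its group. At 90 days, replicate 9 was the lowest of the untreated G93A mice in both, with 25.8 CPM of Nfkbia and 18.4 CPM of Per1. These mice were thus high or low for both genes. Among the untreated G93A mice at 155 days, Tnfrsf1b, Nfkb2, Relb, Nfkbiz and Tnfaip3 were also highest in replicate 11. Tnf, Tnfrsf1a and Nfkb1 were highest in replicate 10. Over all mice Nfkbiz had r = 0.661 with Nfkbia.

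**Figure D3:**
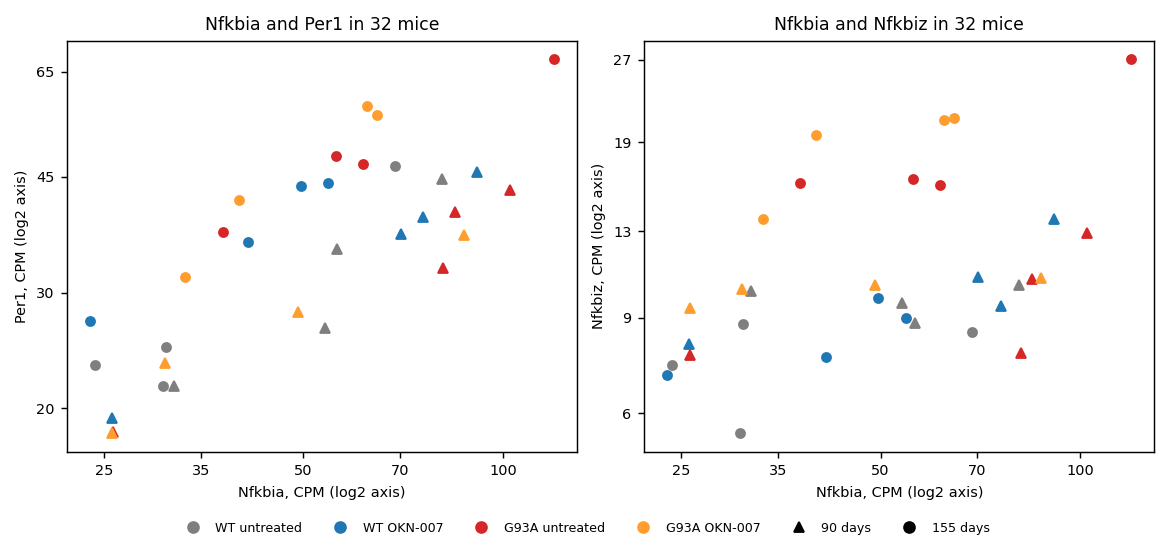
Nfkbia in CPM (horizontal axis, log2 scale) against Per1 (left) and Nfkbiz (right, both vertical axes on a log2 scale) in 32 mice, with colours for genotype and treatment, triangles for 90 days and circles for 155 days. Per1 follows Nfkbia inside the groups (r = 0.964 after removal of group means), and in the right panel the 8 G93A mice at 155 days lie above the other mice of like Nfkbia level.

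For the other members the likeness was weaker. Nfkb1 and Nfkb2 went together inside the groups (r = 0.756), and each was among the 3 genes most like the other. For Nfkb2 the closest were Cpxm2 (r = 0.761), Nfkb1 and the peptide transporter gene Tap1 (r = 0.739). Tnfrsf1a was most like the Fc receptor gene Fcgr3 (r = 0.893), Serpina3n (r = 0.864) and Arhgdib (r = 0.858), and had r = 0.631 with Tnfrsf1b. For Tnf, whose counts were low, the closest genes were Gm11592 (r = 0.708), Spocd1 (r = 0.610) and Dennd2d (r = 0.605). Nfkbia and Tnfaip3 had r = -0.141.

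Other genes of the pathway were counted from lists of 117 genes, of which 99 were tested at 155 days. In untreated G93A mice 55 were higher, 7 were lower and 37 were not called, with a median log2 fold change of 0.64 against 0.000155 over all genes tested, of which 21.3% were higher and 18.2% lower. The counts of the lists below stand against the same shares. Some list genes, among them Tnfsf11 and Cxcl10, passed the filter on low counts through the G93A mice, which favours higher genes in these counts and medians. The lists were also chosen with earlier results of these data known. In mice given OKN-007, against their own WT controls, 57 were higher and 6 lower, against 23.3% and 18.2% of all genes tested, with a median of 0.69 against 0.018. The G93A change was greater at 155 than at 90 days for 41 of 103 list genes tested in all mice and smaller for 4 in untreated mice, and greater for 43 and smaller for 3 with OKN-007. Of all genes tested 12.9% and 13% had a greater change at 155 days in these comparisons. No gene of the lists was called by edgeR at 90 days, in a comparison of OKN-007 with no treatment or in an interaction.

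Of 17 other ligands of the TNF superfamily 10 were tested, and of these 5 were higher in untreated G93A mice at 155 days and 0 lower. Tnfsf11, the RANK ligand, went from 0.0382 to 0.223 CPM in WT to 0.786 to 2.75 CPM in G93A mice (log2 fold change 4.14, SE 0.70). It had 6 counts or fewer in each WT mouse and passed the filter through the G93A mice, so that the size of its fold change is uncertain. Tnfsf8, the ligand of CD30, had 3.08 (SE 0.30), from 13 counts or fewer in each WT mouse, so that its size is also uncertain. The lowest log2 fold changes among those called were 0.64 (SE 0.21) for Tnfsf12 and 0.61 (SE 0.24) for Eda, and their groups overlapped. Of 22 other receptors of the superfamily 18 were tested, and of these 9 were higher and 0 lower. They were led by the death receptor Fas (log2 fold change 2.19, SE 0.21), at 3.95 to 7.44 CPM in WT and 16.5 to 32.6 CPM in G93A mice, and by Tnfrsf12a, the receptor of the Tnfsf12 product (1.88, SE 0.17). Tnfrsf19 (0.48, SE 0.079) and Tnfrsf11a, the receptor of the Tnfsf11 product (0.68, SE 0.12), changed least among those called.

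Of 18 genes for the release of TNF and for receptor adaptors, 11 were higher and 1 was lower. The largest log2 fold changes were 1.75 (SE 0.16) for Casp8, the caspase recruited to death receptors, and 1.69 (SE 0.28) for Rhbdf2, which is needed to shed TNF from the cell surface. Traf3, an adaptor that keeps NIK low, was the gene that fell, from 54.5 to 71.5 CPM in WT to 36.3 to 58.6 CPM in G93A mice (log2 fold change -0.38, SE 0.12, edgeR adjusted p = 0.0200). Its groups overlapped. The smallest rise was that of Rnf31, a subunit of the linear ubiquitin ligase (0.22, SE 0.074).

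Of 13 genes of the IKK complex and the kinases above it, 6 were higher and 2 lower. Ikbke, an IKK-related kinase, had a log2 fold change of 1.497 (SE 0.20), and Map3k14, which encodes NIK, had 1.26 (SE 0.15). Map3k14 was at 2.64 to 3.60 CPM in WT and 6.58 to 8.12 CPM in G93A mice. Tab3, an adaptor of the kinase TAK1 (-0.57, SE 0.11), and the IKK-related kinase Tbk1 (-0.19, SE 0.074) were lower.

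Of the 6 other Rel and IkB genes, 4 were higher and 0 lower. Bcl3, a nuclear IkB-like cofactor, was at 0.535 to 1.21 CPM in WT and 12.9 to 21.3 CPM in G93A mice, a log2 fold change of 4.10 (SE 0.24, edgeR adjusted p = 2.2e-10). The transactivating subunits Rela (0.67, SE 0.093) and Rel (0.54, SE 0.12) and the inhibitor gene Nfkbie (0.64, SE 0.16) rose less. Of 11 feedback regulators 4 were higher and 2 lower, which is 54.5% called in either direction against 39.5% of all genes tested. The lower share was near that of all genes, and the difference in the higher share was not tested. The RNase gene Zc3h12a was at 1.98 (SE 0.29). Tnip3, a partner of the Tnfaip3 protein, was at 2.70 (SE 0.67), from 4 counts or fewer in each WT mouse. The deubiquitinase gene Cyld (-0.31, SE 0.076) and Rnf11 (-0.22, SE 0.074) fell. Neither overlapped between the groups, a separation that 15.3% of all genes tested showed in this direction.

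Of 30 genes listed as NF-kB targets 23 were tested and 7 had too few counts, and of the 23, 16 were higher and 2 lower, with a median log2 fold change of 1.54. The chemokine gene Cxcl10 was at 0.0745 to 0.347 CPM in WT and 3.16 to 10.9 CPM in G93A mice (log2 fold change 5.11, SE 0.50), and Plau, which encodes urokinase, at 1.44 to 1.91 CPM and 22.2 to 46.7 CPM (4.34, SE 0.24). Mmp9, a gelatinase, went from 8.20 to 9.95 CPM down to 2.56 to 3.08 CPM (-1.61, SE 0.14, edgeR adjusted p = 3.0e-08), and Sod2, the mitochondrial superoxide dismutase, had -0.42 (SE 0.082). Cxcl10, Ccl2 and Il1b had at most 8, 5 and 4 counts in any WT mouse, so that the size of their fold changes is uncertain. These genes passed the filter on low counts through the G93A mice, which favours higher genes in the count of 16 and in the median.

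**Figure D4:**
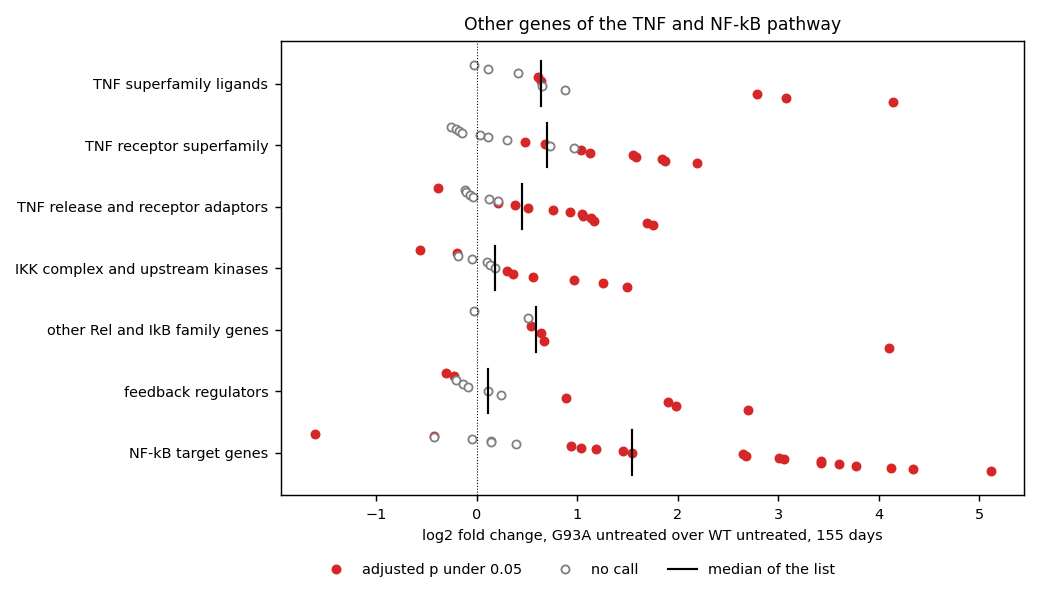
The log2 fold change of untreated G93A over untreated WT mice at 155 days (horizontal axis) for 99 tested genes in 7 lists (vertical axis); filled points had an edgeR adjusted p under 0.05, open points did not, and bars are list medians. The NF-kB targets have the highest median (1.54) and reach from -1.61 to 5.11, and the feedback regulators have the lowest median (0.11). Some of the targets passed the filter on low counts through the G93A mice.

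Markers of several cell types moved with the genotype at 155 days, and in whole tissue a change in the number of cells of a type cannot be told apart from a change in RNA per cell. The counts below stand against 21.3% of all genes tested called higher and 18.2% called lower in untreated mice. In mice given OKN-007 these shares were 23.3% and 18.2%. All 10 microglial markers were higher in untreated G93A mice (median log2 fold change 2.25), with a summed level of 377 to 475 CPM in WT and 1651 to 3006 CPM in G93A mice, and none was at 0. All 10 markers of disease-associated microglia were also higher, with a median of 4.11. Of the astrocyte markers 7 of 8 were higher (median 0.69), at a summed level of 5963 to 6676 CPM in WT and 15141 to 18679 CPM in G93A mice. Of the neuronal markers 5 of 5 and of the motor neuron markers 5 of 6 were lower. Of the 6 T cell markers, 3 could be tested and 2 were higher, at a summed level of 0.853 to 1.30 CPM in WT and 2.11 to 2.77 CPM in G93A mice. None of the neutrophil markers (2 tested of 6) was called, at a summed level of 0.261 to 2.64 CPM in WT and 0.937 to 1.16 CPM in G93A mice. None of the monocyte and border macrophage markers (4 tested of 6) was called either, at 3.64 to 4.197 CPM and 4.51 to 7.01 CPM, which did not overlap. Of single genes tested, 17.4% separated in this direction. Of the remaining lists, 1 of 5 oligodendrocyte markers was higher, 5 of 9 caudal Hox genes were lower, 0 of 6 endothelial and 0 of 5 tested liver markers were called, and none of the 4 B cell markers could be tested. In mice given OKN-007, the markers called between G93A and WT mice at 155 days were 10 of 10 microglial, 10 of 10 disease-associated, 6 of 8 astrocyte, 2 of 3 tested T cell, 1 of 5 oligodendrocyte, 1 of 4 tested monocyte and border macrophage and 1 of 5 tested liver markers, all higher. Lower were 5 of 5 neuronal, 6 of 6 motor neuron, 2 of 6 endothelial and 6 of 9 caudal Hox genes. Lists with 1 marker called lay near the shares of all genes tested. The part of these cells in the changes of the pathway genes was not tested.

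At 90 days the summed level of the microglial markers was 442 to 509 CPM in untreated WT and 450 to 695 CPM in untreated G93A mice, and these overlapped. With the caudal Hox level as a covariate, the count of genes called higher at 155 days was 9 of 9 in untreated mice and 9 of 9 in mice given OKN-007. The log2 fold change of Nfkbia was then 1.67 (SE 0.39, edgeR adjusted p = 0.00435) and 1.03 (SE 0.37, edgeR adjusted p = 0.0478). With this covariate 4713 and 5137 of 18675 genes were called in either direction. The Hox level was itself far lower in G93A than in WT mice at this age, so that the covariate cannot separate cord position from genotype. Without the 3 libraries high in Alb, 8 and 8 of the 9 genes were called higher, and 7348 and 7058 of 18918 genes were called in either direction.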

How the data were processed

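Spinal cord RNA of 32 mice was sequenced from stranded mRNA libraries, and the authors deposited raw counts per gene without normalization. The study's methods name Trimmomatic, STAR and HTSeq with GENCODE M10 on GRCm38, whereas the submitters' processing notes list STAR, featureCounts, edgeR and GRCm39. Which of them made the table, and its strand setting, are not given in the sources used here. Names and gene positions are those of GENCODE M21 (GRCm38), which paired 41218 of 42524 genes (96.9%), and are not stated to be the build of the files. No 2 libraries held identical values. The smallest chi-square between libraries of a group was 3.57 per gene.

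Counts were tested with edgeR 4.0.16 in R 4.3.3: filterByExpr, TMM factors, estimateDisp, glmQLFit and glmQLFTest, two-sided, with Benjamini-Hochberg adjustment over all genes tested and a threshold of 0.05. The 16 mice of an age were fitted as 4 groups (18675 genes at 155 days, 18899 at 90 days), and age differences were fitted in all 32 mice (19829 genes). Standard errors were taken from the F statistic, and 95% intervals from these with the degrees of freedom of the test. Printed CPM used TMM factors of all 32 mice, and likeness used log2 CPM with a prior count of 2. The script was tested on simulated data.

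Alternatives were DESeq2 1.42.0, RLE factors, no filter, only the compared groups, all 32 mice in 1 fit, a caudal Hox covariate, leaving out libraries with Alb above 40 CPM, leaving out each mouse, and a replicate block. The 9 genes, the pathway and marker lists, the Alb and the Hox checks were chosen with earlier results of these data known. Named from each pathway list were the 2 genes with the highest and the 2 with the lowest log2 fold change among those called in untreated mice at 155 days, and any called at 90 days, with OKN-007 or in an interaction, of which there were 0. For Tnf, Tnfrsf1a, Nfkb2 and Nfkbia the 3 most alike genes were named. Psd, Alb, Xist and Kdm5d were named outside this rule. The human transgene was not analysed here.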

Additional observations from a re-analysis of the deposited data

Results flagged for a closer look

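Some values stood far from the other 3 mice of their group by Dixon's criterion. Of 72 sets of 4 mice (9 genes in 8 groups), 6 held such a mouse, where chance alone gives about 3.6 at 1 in 20. In untreated WT mice at 155 days, Nfkbia was at 68.8 CPM in replicate 4 (others 24.2 to 31.0 CPM) and Relb at 7.07 CPM in replicate 2 (others 4.99 to 5.12 CPM). In untreated G93A mice at 155 days, Nfkbiz was at 27.03 CPM in replicate 11 (others 15.8 to 16.3 CPM). In WT mice given OKN-007 at 155 days, Nfkb1 was at 23.9 CPM in replicate 7 (others 28.4 to 29.3 CPM) and Tnfrsf1b at 4.27 CPM in replicate 8 (others 3.45 to 3.58 CPM). In WT mice given OKN-007 at 90 days, Relb was at 4.19 CPM in replicate 7 (others 5.21 to 5.36 CPM).

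The change between G93A and WT mice differed between the ages by edgeR's test of the difference itself. In untreated mice the log2 fold change at 155 days exceeded that at 90 days by 3.04 for Tnf, 1.89 for Tnfrsf1a, 1.95 for Tnfrsf1b, 0.49 for Nfkb1, 1.495 for Nfkb2, 1.16 for Relb, 1.30 for Nfkbiz and 2.04 for Tnfaip3. In mice given OKN-007 it exceeded it by 2.11 for Tnfrsf1a, 1.87 for Tnfrsf1b, 0.46 for Nfkb1, 1.48 for Nfkb2, 0.83 for Relb, 1.22 for Nfkbiz and 1.06 for Tnfaip3.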

How the results depend on the processing

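The counts of the 9 genes called in the 13 comparisons stayed within 1.5 times their value in all 232 refits. Of 1983 refitted fold changes of these genes, 17 moved across the threshold and 0 reversed a call. The call of Nfkbia in untreated mice at 155 days rests on the setting, with a log2 fold change of 0.84 with no filter on low counts (edgeR adjusted p = 0.000302), 1.67 with the Hox covariate, 1.29 without WT replicate 4 and 1.05 without G93A replicate 10 (edgeR adjusted p = 0.0272); over 7 alternatives its adjusted p ran from 0.000302 to 0.131. The cause was not tested. The age difference of Tnf in untreated mice missed the threshold in 12 refits, among them no filter (3.03, adjusted p = 0.0737) and the Hox covariate (3.16, adjusted p = 0.0520). Leaving out 1 mouse at a time gave 8 to 9 genes called in untreated and 8 in OKN-007 mice at 155 days, and 57 to 67 pathway list genes. The share of all genes called was not counted in these fits. The ligand list fell from 5 to 3 calls without untreated WT replicate 3, G93A replicate 10 or G93A replicate 11 at 155 days. These list counts were added after the data were seen, and the IKK list fell from 8 to 5 calls with the Hox covariate. Over all genes, that covariate gave 4713 calls in place of 7378 in untreated mice at 155 days and 5137 in place of 7747 with OKN-007. Averaged at 90 days, calls were 5 by edgeR, 58 by DESeq2, 110 with no filter and 21 with all 32 mice in 1 fit. G93A against WT at 90 days gave 0 calls in untreated mice (15 by DESeq2, 39 with no filter, 1 with all 32 mice) and 0 with OKN-007 (1, 24 and 0, and 3 from only the compared groups). OKN-007 against untreated and the interactions gave 0 calls by edgeR, and at most 17 with no filter, 3 by DESeq2, 2 with all 32 mice and 2 with the Hox covariate.

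Replicate numbers are shared between the ages of a group but belong to different mice. Deviations of 16 same-numbered pairs correlated at -0.21 to 0.13 (median -0.012), 2 of them over 0.1, and 2 of 16 mice correlated best with their own number. With a replicate block, the age differences gave 8 and 7 of the 9 genes, as without it. Of all 19829 genes tested, 4197 and 4624 were called in either direction with the block.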
